A study of Homo sapiens with 24 samples.

Results

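The 3 libraries of the MRM3 knock-out line (MRM3 KO) were compared with the 3 libraries of the parental line, all made with 500 μM dNTPs, which are 6 of the 24 samples of the series. Both lines are HEK293T Flp-In T-REx cells, human embryonic kidney cells that carry a site for inserting transgenes, and the parental line is unedited for MRM3. The remaining samples are the libraries of the MRM1 and MRM2 knock-out lines and those made with 2 μM dNTPs. Each line is a single line profiled in 3 replicates, which by the methods of the study are separate plates, so the p-values cover variation between plates and not between independently made lines. The MRM3 KO line was provided by others, by the supplement of the study. By the labels the knock-out cells were grown in medium with added uridine and more serum than the default medium of the methods. The methods give that default for the parental cells unless stated otherwise, and no source used here gives the medium of these parental plates by themselves. Loss of MRM3 cannot be told apart from the origin of the line, nor from the medium if it differed. Samples were assigned by their titles, because in all 6 of them, and in 18 of the 24, the genotype field names another line. The MRM3 transcript is nuclear and was not counted in these mitochondrial alignments, so its absence was not checked here; the study probed the protein by immunodetection, which is not analysed here. The table holds 15416 positions of all 37 mitochondrial transcripts: 2 mt-rRNAs, 13 mRNAs and 22 mt-tRNAs.

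The mitochondrial ribosome is built on a small subunit with the 12S mt-rRNA (MT-RNR1) and a large subunit with the 16S mt-rRNA (MT-RNR2), and it makes the mtDNA-encoded subunits of the respiratory chain and of ATP synthase. The large subunit holds the peptidyl transferase centre, where the P-loop and the A-loop of the 16S mt-rRNA bind the ends of the tRNAs. MRM1, MRM2 and MRM3 are methyltransferases that add a methyl group to the 2′-hydroxyl of the ribose of G2815 in the P-loop and of U3039 and G3040 in the A-loop. A methylated ribose resists alkaline hydrolysis, so few RNA fragments end at that nucleotide. All positions are given in mtDNA numbering of GRCh38, in which MT-RNR2 spans nucleotides 1671 to 3229 and MT-RNR1 spans nucleotides 648 to 1601, both on the plus strand.

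The stretch of the 16S mt-rRNA around U3039 and G3040 (MT:3027-3052, plus strand, within the MT-RNR2 exon) is shown because both called positions lie in it, with the residues in capitals.
A-loop: uaaagguucguuUGuucaacgauuaa
The stretch around G2815 (MT:2803-2827, plus strand, the same exon) carries the MRM1 residue, in a capital, and serves as the methylated residue of another enzyme.
P-loop: aaauuucgguugGggcgaccucgga

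The MRM3 KO libraries held 230032, 256414 and 485846 counted reads, against 807322, 604562 and 613013 in the parental libraries, so every MRM3 KO library was shallower. The mean fragment was 140, 138 and 121 nucleotides long in MRM3 KO and 124, 123 and 140 nucleotides in parental cells, and these values overlapped. No 2 libraries of a line were alike within sampling noise, with a chi-square per degree of freedom of at least 42.1 over transcripts. The share of mt-tRNA reads set MRM3 KO replicate 1 apart, at 11.6% against 6.31% and 6.39% in the other MRM3 KO libraries, and this library had a TMM scaling factor of 1.41 against 0.811 and 0.779 for those 2.

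Protection from alkaline cleavage fell at the MRM3 residue and at the neighbouring MRM2 residue. At G3040, the MRM3 residue of the A-loop, 52, 52 and 145 fragments ended in MRM3 KO, against 21, 36 and 26 in parental cells, although the coverage there was 12050, 13952 and 21679 reads in MRM3 KO and 70360, 54377 and 55713 reads in parental cells. Relative to the mean of the 6 positions on either side, these 3′ ends amounted to 65.8%, 59.3% and 81.8% in MRM3 KO, against 4.18%, 8.91% and 7.54% in parental cells. Every MRM3 KO library thus lay far above every parental one, and none of the 3 reached the level of its flanks. The ends rose to 68.9% ± 11.6 of the flank in MRM3 KO, against 6.88% ± 2.43 in parental cells (SD, n = 3 each; two-sided exact permutation p = 0.1, the smallest that 3 against 3 allows).

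At U3039, the MRM2 residue, the 3′ ends were 111%, 95.03% and 93.2% of the flank in MRM3 KO, against 32.6%, 42.5% and 31.0% in parental cells. The groups did not overlap, and the MRM3 KO values lay around the level of the flank itself. In counts these were 81, 78 and 158 ends in the shallower MRM3 KO libraries, against 155, 160 and 100 in parental cells. The means were 99.9% ± 10.1 in MRM3 KO and 35.4% ± 6.25 in parental cells (SD, n = 3 each; exact permutation p = 0.1). At G2815, the MRM1 residue, the 3′ ends were 23.9%, 16.3% and 19.6% of the flank in MRM3 KO, against 16.6%, 28.2% and 16.6% in parental cells. These values overlapped, at 19.9% ± 3.81 in MRM3 KO and 20.5% ± 6.72 in parental cells (SD, n = 3 each; exact permutation p = 0.8), and rest on 4 to 12 ends per MRM3 KO library and 20 to 33 per parental library.

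The break after a nucleotide also leaves a 5′ end on the next one, and these ends are counted separately. The 5′ ends after G3040 were 114%, 101% and 112% of their flank in MRM3 KO, against 48.4%, 46.2% and 47.1% in parental cells. After U3039 they were 254%, 288% and 218% of their flank in MRM3 KO, against 84.7%, 91.4% and 94.8% in parental cells. Relative to the flank, both residues thus had more ends in every MRM3 KO library on either side of the break. These levels differed between the 2 kinds of end. After G2815 the 5′ ends were 29.8%, 35.7% and 23.7% of the flank in MRM3 KO, against 23.9%, 16.7% and 20.0% in parental cells, which overlapped (exact permutation p = 0.2).

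**Figure D1:**
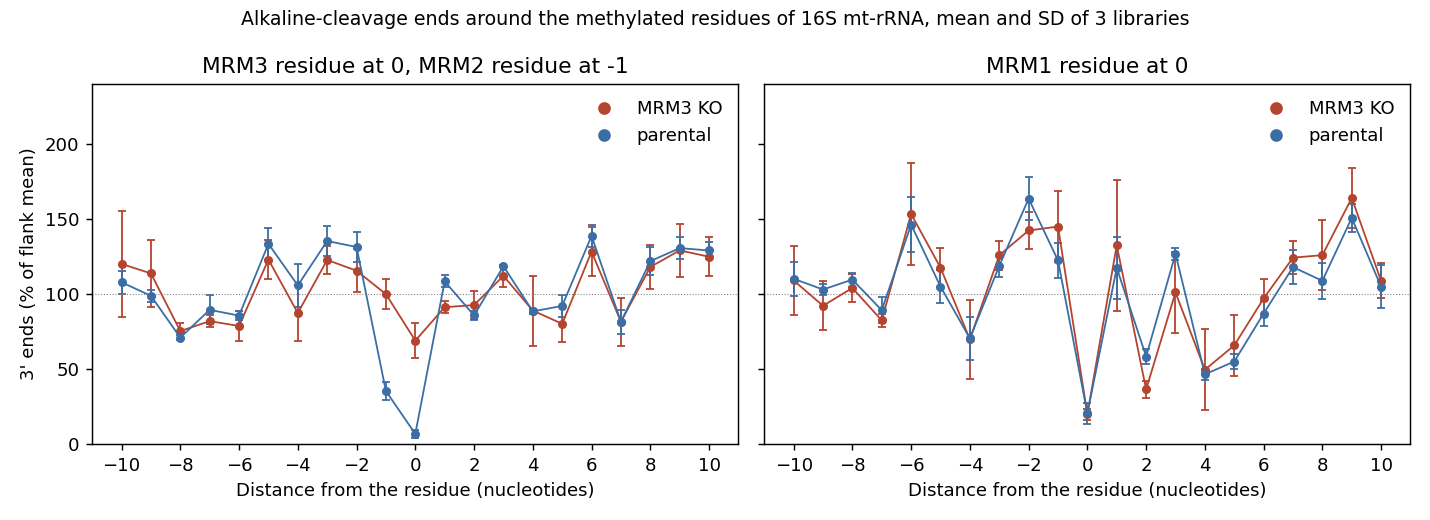
3′ ends at each position as a percentage of the mean of the 6 positions on either side, against the distance in nucleotides from the MRM3 residue (left) and the MRM1 residue (right) of the 16S mt-rRNA; points are means and bars the SD of 3 libraries, with MRM3 KO in red and parental in blue. At distance 0 on the left MRM3 KO stands at 68.9% against 6.88% in parental cells, and at distance -1, the MRM2 residue, at 99.9% against 35.4%, while on the right both lines dip to about the same level at distance 0.

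Of the other 19 positions within 10 nucleotides of G3040, none was higher in all MRM3 KO libraries than in all parental ones and 1 was lower, U3041, at 91.2% ± 3.84 of its flank in MRM3 KO and 108% ± 3.99 in parental cells (SD, n = 3 each). Over all 2263 positions scored in the 6 libraries, the groups did not overlap with MRM3 KO higher at 5.08% and with MRM3 KO lower at 6.19%. The flanks of the positions within 6 nucleotides contain U3039 and G3040 themselves, so more ends at these 2 lower the percentages of their neighbours. Around G2815, 1 of the 21 positions did not overlap, G2817, at 36.5% ± 5.48 in MRM3 KO and 58.4% ± 5.15 in parental cells.

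Across positions, the cleavage protection score condenses the same ends and is near 1 where almost no fragment ends. It is 0 where the ends match or exceed the flank mean less its SD, averaged over both sides. The score can thus be near 0 where the ends are still below the flank mean. It was tested at 641 positions, of which 393 belong to MT-RNR2, 247 to MT-RNR1 and 1 to MT-TE, the mt-tRNA for glutamic acid. The score fell at 2 positions, which is 0.312% of those tested, and rose at none (0%), with 13 lower and 12 higher at an unadjusted p under 0.05. The score of G3040 was 0.0844, 0.155 and 0.00548 in MRM3 KO, against 0.887, 0.780 and 0.799 in parental cells. It fell by 0.74 ± 0.0509 (SE, limma, adjusted p = 4.8e-08). The score of U3039 was 0 in all 3 MRM3 KO libraries, against 0.360, 0.256 and 0.372 in parental cells. It fell by 0.33 ± 0.0549 (SE, limma, adjusted p = 0.0051). An edgeR test on the 3′ ends called the same 2 positions.

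The call at G3040 held under all 15 alternatives, with libraries thinned to 162673 reads (adjusted p = 9.5e-09, limma) among them. The call at U3039 was lost under 5 of them in limma, without parental replicate 1 (adjusted p = 0.053), when only the MRM3 KO and parental libraries were fitted (adjusted p = 0.077), with thinned libraries (adjusted p = 0.096), in the 2 μM libraries (adjusted p = 0.14) and without the filter on scores above 0 (adjusted p = 0.70). The score of G2815 was 0.448, 0.527 and 0.587 in MRM3 KO, against 0.632, 0.418 and 0.578 in parental cells, and the groups overlapped. Its difference was -0.02 in limma, and the direction turned without MRM3 KO replicate 1, without parental replicate 1 and with edgeR on the ends. The differences of the other tested positions ran from -0.21 to 0.21, and none passed the threshold.

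Of the positions scored in all 6 libraries, 18 had a score above 0.5 in every parental library. At 16 of these it was also above 0.5 in every MRM3 KO library. The other 2 were G3040 and G1181 of the 12S mt-rRNA, where the score averaged 0.498 ± 0.198 in MRM3 KO and 0.676 ± 0.0615 in parental cells (SD, n = 3 each). G1181 and the positions given next were named after their values were seen. Among the 16 are N3107, whose base is given as N, and U3109, C3110, A3111 and A3112 close to it. Others are adjacent pairs, such as A750 and A751, or lie near the 3′ end of a transcript, namely G1595, A3223 and G14680. Whether a high score at the 16 marks a methylated ribose was not tested.

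In the MRM1 KO libraries the 3′ ends at G3040 were 3.97%, 6.85% and 5.80% of the flank, and in the MRM2 KO libraries 2.43%, 2.95% and 2.64%, all below the 59.3% to 81.8% of MRM3 KO. At U3039 the MRM1 KO libraries had 40.5%, 41.5% and 36.6%, while the MRM2 KO libraries had 151%, 152% and 167%. The MRM3 KO libraries, at 93.2% to 111%, lay between those lines without overlap with either (exact permutation p = 0.1 for each). At G2815 the MRM1 KO libraries had 116%, 102% and 120%, above the 16.3% to 23.9% of MRM3 KO.

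The other known modified residues of the mt-rRNAs are altered on the base and keep a free 2′-hydroxyl. None of them was called. At m5U1076, m5C1488 and m62A1583 the score was 0 in all 6 libraries, so it could show no difference between the lines there. At m4C1486 the score was 0 in all but MRM3 KO replicate 1, at 0.0108, so it could hardly show one either. At m1A2617 of the 16S mt-rRNA, the 3′ ends were 79.5%, 98.4% and 90.2% of the flank in MRM3 KO, against 57.7%, 75.4% and 56.3% in parental cells. At U3067, a pseudouridine of the 16S mt-rRNA, they were 94.3%, 87.8% and 81.8% in MRM3 KO, against 64.4%, 59.6% and 63.2% in parental cells. At both residues every MRM3 KO library lay above every parental one, and the scores differed by -0.12 (limma, adjusted p = 0.95) and by -0.11 (limma, adjusted p = 0.96). At m4C1486 of the 12S mt-rRNA the 3′ ends were 72.8% ± 1.29 of the flank in MRM3 KO and 85.5% ± 5.96 in parental cells (SD, n = 3 each), without overlap (exact permutation p = 0.1). Over all 2263 scored positions, MRM3 KO was higher without overlap at 5.08% and lower without overlap at 6.19%. The groups overlapped at m5U1076, m5C1488, m62A1583 and m62A1584 of the 12S mt-rRNA.

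The 16S mt-rRNA made up a smaller share of the reads in MRM3 KO, and the 12S mt-rRNA a larger one. Of the reads, MT-RNR2 took 25.8%, 25.2% and 23.5% in MRM3 KO, against 42.3%, 43.5% and 42.7% in parental cells. MT-RNR1 took 45.1%, 47.9% and 47.4% in MRM3 KO, against 36.5%, 36.4% and 36.4% in parental cells. Neither pair of groups overlapped, and the 95% Wilson intervals of single libraries, which cover counting error only, extend at most 0.203 percentage points to either side. The mRNAs took 20.3% ± 2.62 in MRM3 KO and 12.6% ± 0.539 in parental cells (SD, n = 3 each), again without overlap. The mt-tRNAs took 8.11% ± 3.06 in MRM3 KO and 8.15% ± 0.997 in parental cells, which overlapped. In shares of a total, a fall of one class raises the others, and less 16S mt-rRNA per cell cannot be told apart from more of the other RNAs.

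**Figure D2:**
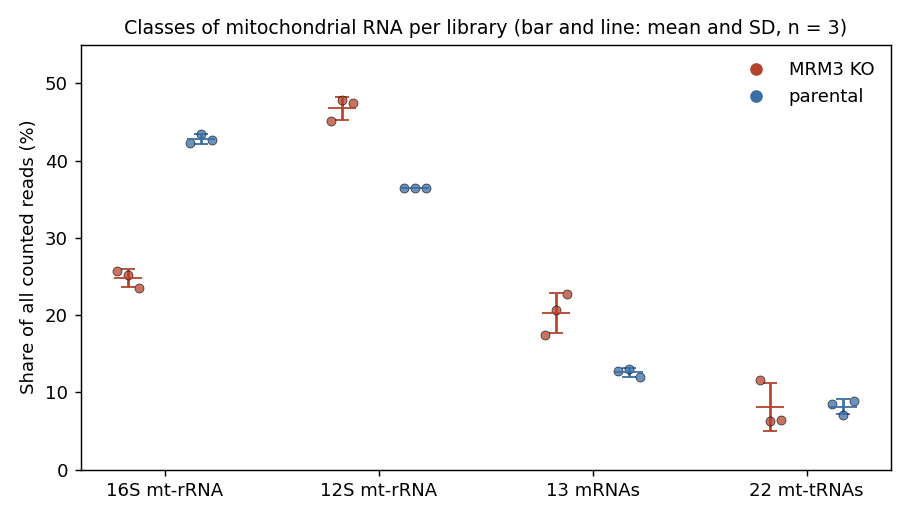
Share of all counted reads, in percent, taken by the 16S mt-rRNA, the 12S mt-rRNA, the 13 mRNAs and the 22 mt-tRNAs; points are the 3 libraries of MRM3 KO (red) and of the parental line (blue), and the bar and line their mean and SD. The 16S mt-rRNA stands near 24.8% in MRM3 KO and near 42.8% in parental cells, the 12S mt-rRNA and the mRNAs stand higher in MRM3 KO, and the mt-tRNAs overlap, with MRM3 KO replicate 1 at 11.6%.

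The ratio of the 2 mt-rRNAs within a library does not depend on the scaling. The ratio of 16S to 12S reads was 0.571, 0.525 and 0.496 in MRM3 KO, against 1.16, 1.19 and 1.17 in parental cells. All MRM3 KO values were thus under the lowest parental one, at 45.2% of the parental mean. The difference of the log2 ratio, MRM3 KO minus parental, was -1.15 (two-sided exact permutation p = 0.1, the smallest possible). Per nucleotide of transcript the ratio of reads was 0.325 ± 0.0233 in MRM3 KO and 0.719 ± 0.0108 in parental cells (SD, n = 3 each). In the libraries of the same plates made with 2 μM dNTPs the ratio of reads was 0.693, 0.697 and 0.627 in MRM3 KO, against 1.45, 1.48 and 1.43 in parental cells. In the other knock-out lines at 500 μM it was 1.30 to 1.38 without MRM1 and 1.34 to 1.41 without MRM2, above every MRM3 KO library. The ratio of 16S to mRNA reads was 1.47, 1.22 and 1.04 in MRM3 KO, against 3.33, 3.33 and 3.56 in parental cells, also without overlap. For mRNA to 12S reads it was 0.388, 0.432 and 0.478 in MRM3 KO, against 0.348, 0.358 and 0.330 in parental cells. These did not overlap either, with the MRM3 KO mean at 125% of the parental one.

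By transcript, edgeR called 8 of the 37 higher (21.6%) and 7 lower (18.9%) in MRM3 KO. The 8 higher ones were all mRNAs, and the 7 lower ones were the 16S mt-rRNA and 6 mt-tRNAs. The split depended on the scaling: total reads gave 11 higher and 3 lower, and DESeq2 10 higher and 7 lower. The median log2 fold over all 37 transcripts was -0.16 with TMM, 0.05 with DESeq2 and 0.14 with total reads. Called in the same direction under all 3 scalings were 11 transcripts, the 8 mRNAs and 3 lower ones. In reads per 1000000 counted reads (RPM), without further scaling, the groups did not overlap for 13 transcripts that were higher (35.1%) and 3 that were lower (8.11%) in MRM3 KO.

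MT-RNR2, the 16S mt-rRNA, had a log2 fold of -0.999 ± 0.213 (SE, edgeR, adjusted p = 3.9e-05). Relative to the median of all transcripts it was -0.84 with TMM, -0.82 with DESeq2 and -0.93 with total reads, and the call held without any one library. Its log2 fold in the same fit was -0.840 over the MRM1 KO line (edgeR, adjusted p = 0.00032). Over the MRM2 KO line it was -0.212 and was not called (edgeR, adjusted p = 0.34). This fold depends on the TMM factors, at 1.35, 1.34 and 1.33 in MRM2 KO, against 1.41, 0.811 and 0.779 in MRM3 KO. As a share of reads, MT-RNR2 took 39.8% to 43.2% in MRM2 KO, against 23.5% to 25.8% in MRM3 KO, without overlap. MT-RNR1, the 12S mt-rRNA, had a log2 fold of 0.17 ± 0.212 (SE, edgeR, adjusted p = 0.58), was called with total reads (0.36) and without MRM3 KO replicate 1 (0.28, adjusted p = 0.012), and turned to -0.15 with the 6 libraries alone and to -0.17 with the mt-tRNAs left out.

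Among the mRNAs, the complex I list (NADH dehydrogenase, the entry point of electrons from NADH) held the 3 largest folds. Of its 7 transcripts 5 rose and 2 did not pass the test, where 21.6% of all transcripts were called higher. Its median log2 fold was 0.99, against -0.16 over all transcripts. Of all 13 mRNAs 8 were called higher, with a median of 0.91, so the list was near the mRNAs as a whole. MT-ND2, a subunit of the membrane arm, had 15489, 19422 and 19164 RPM in MRM3 KO, against 4647, 5128 and 4964 in parental cells. All 3 MRM3 KO libraries lay at over 3 times any parental one, and the log2 fold was 1.71 ± 0.321 (SE, edgeR, adjusted p = 3.7e-06). MT-ND1, another subunit of that arm, had 13303, 16867 and 18172 RPM in MRM3 KO, against 4593, 4974 and 4356 in parental cells. The groups were far apart, with a log2 fold of 1.64 ± 0.318 (SE, edgeR, adjusted p = 5.9e-06). MT-ND1 lies 2 genes downstream of MT-RNR2 on the same strand, with only MT-TL1 in between.

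MT-ND3, which also encodes a membrane subunit, had 3739, 4450 and 4372 RPM in MRM3 KO, against 1180, 1325 and 1393 in parental cells. Its groups were equally clear of each other, with a log2 fold of 1.51 ± 0.280 (SE, edgeR, adjusted p = 3.7e-06). MT-ND6, the mRNA of the minus strand, had 2552, 1958 and 2357 RPM in MRM3 KO, against 1027, 892 and 1026 in parental cells. It rose by a log2 fold of 0.99 (edgeR, adjusted p = 0.0013), as did MT-ND4L by 0.77 (edgeR, adjusted p = 0.030). The call of MT-ND4L was lost without parental replicate 1 or 2 (adjusted p = 0.11 and 0.12, edgeR). MT-ND4, at 0.69 (edgeR, adjusted p = 0.070), and MT-ND5, at 0.20 (edgeR, adjusted p = 0.64), did not pass, although neither overlapped between the groups in RPM. MT-ND4 was called by DESeq2 (0.91, adjusted p = 0.016) and by edgeR with total reads (0.84, adjusted p = 0.0018).

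Both ATP synthase mRNAs rose, where 8 of the 13 mRNAs and 21.6% of all transcripts were called higher. MT-ATP6, a subunit of the proton channel, had 15233, 17503 and 21678 RPM in MRM3 KO, against 8142, 8623 and 6886 in parental cells. MT-ATP8, whose reading frame overlaps that of MT-ATP6 at nucleotides 8527 to 8572, had 978, 1033 and 860 RPM in MRM3 KO, against 391, 432 and 388 in parental cells. The libraries of the lines did not overlap for either, and the log2 folds were 1.04 ± 0.318 and 1.03 ± 0.286 (SE, edgeR, adjusted p = 0.0032 and 0.0013). Fragments within the shared stretch cannot be given to one of the 2 genes.

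MT-CYB, cytochrome b of complex III, had 13259, 15549 and 18710 RPM in MRM3 KO, against 7815, 7700 and 7132 in parental cells, and rose by a log2 fold of 0.91 (edgeR, adjusted p = 0.011). None of the 3 complex IV mRNAs (cytochrome c oxidase, the last enzyme of the chain) was called by edgeR with TMM. MT-CO3 came nearest, at 20306, 21906 and 24726 RPM in MRM3 KO, against 12558, 12885 and 11882 in parental cells, with a log2 fold of 0.67 (edgeR, adjusted p = 0.076), and was called by DESeq2 (0.89, adjusted p = 0.010) and by edgeR with total reads (0.84, adjusted p = 0.00020). MT-CO1 had 36847, 42607 and 48283 RPM in MRM3 KO, against 44904, 46303 and 42239 in parental cells, and was the only mRNA whose libraries overlapped. With the 6 libraries alone it was called lower, at -0.57 (edgeR, adjusted p = 0.030). MT-CO2 had a log2 fold of 0.19 (edgeR, adjusted p = 0.67).

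Some of the mRNA calls depended on the libraries in the fit. With the 6 libraries of the comparison alone, the calls of MT-ND1, MT-ND2, MT-ND3 and MT-ATP6 held, while those of MT-ATP8 (0.73, adjusted p = 0.12), MT-ND6 (0.71, adjusted p = 0.065), MT-CYB (0.57, adjusted p = 0.073) and MT-ND4L (0.45, adjusted p = 0.13) were lost in edgeR. In the 2 μM libraries MT-ND1, MT-ND2 and MT-ND3 were called, and MT-ATP6, MT-ATP8, MT-ND6, MT-CYB and MT-ND4L were not (log2 folds of 0.58 to 1.11, adjusted p of 0.091 to 0.42, edgeR).

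**Figure D3:**
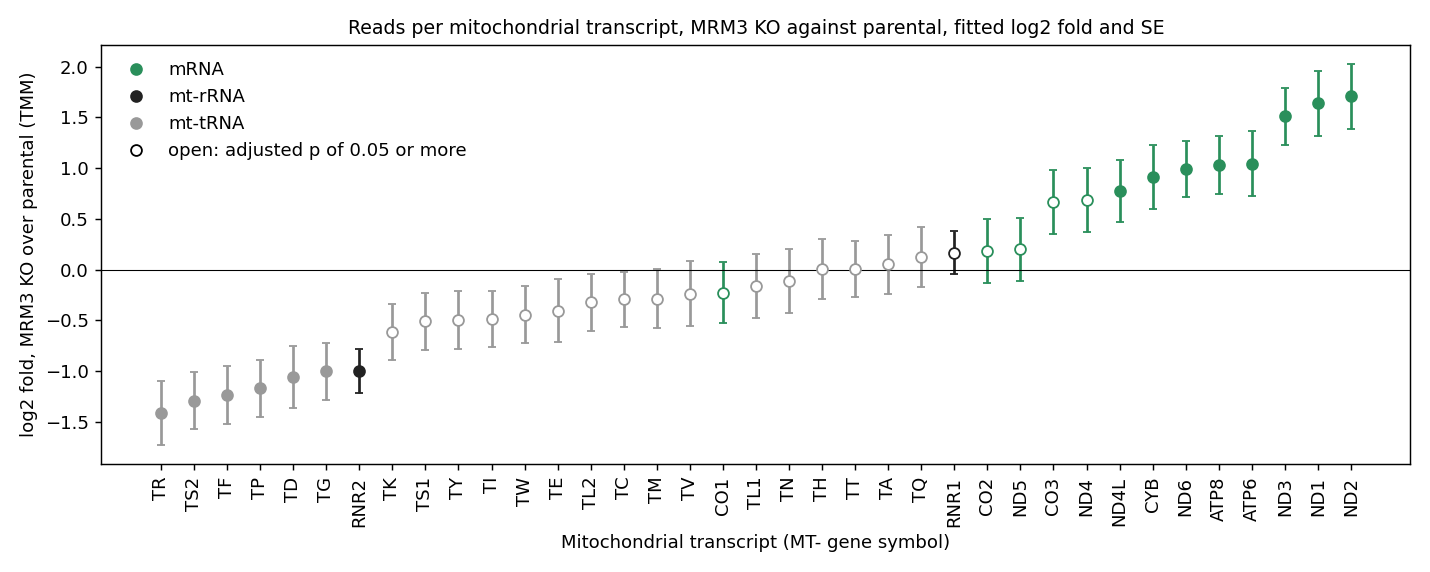
Fitted log2 fold of reads per transcript, MRM3 KO over parental, with TMM scaling, for all 37 mitochondrial transcripts in order of size; bars are the SE of the fit, and open points have an adjusted p of 0.05 or more (edgeR). MT-ND2 at 1.71 is the highest, MT-TR at -1.41 the lowest and MT-RNR2 stands at -0.999, with the filled mt-tRNAs depending in part on the scaling.

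The mt-tRNAs had a median log2 fold of -0.42, against -0.16 over all transcripts. Of 14 on the plus strand 5 fell and of 8 on the minus strand 1 fell, where 18.9% of all transcripts were called lower, and none rose. Of these 6 calls, 4 depended on the scaling. MT-TS2, a tRNA for serine, had 887, 932 and 1692 RPM in MRM3 KO, against 2449, 2346 and 3024 in parental cells. MT-TF, the tRNA for phenylalanine that lies just upstream of the 12S mt-rRNA, had 2104, 1525 and 1354 RPM in MRM3 KO, against 3014, 3034 and 3656 in parental cells. For these 2 the groups did not overlap, and the log2 folds were -1.29 ± 0.280 and -1.23 ± 0.285 (SE, edgeR, adjusted p = 4.4e-05 and 0.00011), called under all 3 scalings. In the 2 μM libraries MT-TF was called and MT-TS2 was not (-0.54, adjusted p = 0.45, edgeR).

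The other 4 calls, MT-TR, MT-TP, MT-TD and MT-TG, had log2 folds of -1.41 to -1.003 with TMM. In RPM their libraries overlapped. MT-TR, the tRNA for arginine, had 339, 97.5 and 111 RPM in MRM3 KO, against 343, 440 and 318 in parental cells, with MRM3 KO replicate 1 among the parental values. None of the 4 was called in the 2 μM libraries, and MT-TD and MT-TG were lost with the 6 libraries alone (adjusted p = 0.10 and 0.060, edgeR). These 4 calls were lost with total reads (adjusted p of 0.091 to 0.42, edgeR) and without either MRM3 KO replicate 2 or replicate 3. Leaving out MRM3 KO replicate 1 gave 11 transcripts higher and 11 lower, and leaving out replicate 2 or 3 gave 9 or 8 higher and 3 lower. Of the 3 mt-tRNAs next to the mt-rRNAs, MT-TF fell, while MT-TV and MT-TL1, the tRNAs for valine and leucine on either side of the 16S mt-rRNA, had log2 folds of -0.24 and -0.16 (edgeR, adjusted p = 0.58 and 0.70).

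The stop ratio gives the share of fragments that cover the next nucleotide and have their 5′ end there. At 500 μM dNTPs it counts ends of alkaline cleavage together with positions where reverse transcriptase stopped. At the 14090 positions tested, limma called none higher (0%) and none lower (0%), with 785 higher and 471 lower at an unadjusted p under 0.05. The groups did not overlap with MRM3 KO higher at 3.04% of them and with MRM3 KO lower at 6.02%. For limma 1 was added to stops and coverage, which raises the ratio of the shallower MRM3 KO libraries where stops are few. C3106 of the 16S mt-rRNA had 0 stops in all 6 libraries and a log2 difference of 1.88 (limma, adjusted p = 0.11). EdgeR on the stop counts called 3 higher (0.0213%) and 10 lower (0.071%) in MRM3 KO. Without MRM3 KO replicate 3 limma called 23. Of the 13 positions called by edgeR, 10 lie in the 16S mt-rRNA and 1 each in the 12S mt-rRNA, MT-TH and MT-CO2. Of the 14090 tested, 1558 lie in the 16S mt-rRNA and 953 in the 12S mt-rRNA. Coverage per library was 12071 to 70500 reads at G3040 and 2880 to 12263 at A1708, both in the 16S mt-rRNA. It was 2977 to 9684 at the 12S position, 660 to 3070 at the MT-TH one and 591 to 1845 at the MT-CO2 one. Whether deeper coverage accounts for the calls in the 16S mt-rRNA was not tested. The called positions other than U3039, G3040 and A2617 were named after their values were seen.

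Among the higher positions were both residues of the A-loop. At U3039 the stops were 1.15%, 1.37% and 1.00% of the coverage in MRM3 KO, against 0.365%, 0.460% and 0.442% in parental cells (edgeR log2 1.47 ± 0.167, SE, adjusted p = 2.0e-14; limma adjusted p = 0.11). At G3040 they were 0.605%, 0.586% and 0.582% in MRM3 KO, against 0.228%, 0.251% and 0.245% in parental cells (edgeR log2 1.29 ± 0.202, SE, adjusted p = 5.3e-07; limma adjusted p = 0.11). No MRM3 KO library overlapped with a parental one at either residue.

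Stretches of the 16S mt-rRNA are shown for the 2 lower calls with the smallest p, with the position in a capital.
A2617 (MT:2605-2629, plus strand, MT-RNR2 exon): cuuguuccuuaaAuagggaccugua
A2029 (MT:2017-2041, plus strand, MT-RNR2 exon): ugguuguccaagAuagaaucuuagu

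At A2617, which carries a methyl group on the face of the base that pairs and so stops reverse transcriptase, the stops were 27.3%, 27.5% and 21.7% of the coverage in MRM3 KO, against 44.5%, 36.5% and 46.1% in parental cells. The groups did not overlap, and the stops were lower by 16.9 percentage points in MRM3 KO (edgeR log2 -0.73 ± 0.0967, SE, adjusted p = 1.6e-10; limma adjusted p = 0.11). They rest on 1766 to 2691 stops per MRM3 KO library and 7563 to 13794 per parental library. At A2029 the stops were 1.83%, 2.06% and 1.15% in MRM3 KO, against 3.39%, 3.71% and 5.42% in parental cells, without overlap (edgeR log2 -1.34, adjusted p = 1.1e-13; limma adjusted p = 0.11). The next nucleotide, U2030, was called as well, at 0.980% ± 0.243 in MRM3 KO and 1.72% ± 0.425 in parental cells (SD, n = 3 each).

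At G12168, nucleotide 31 of the mt-tRNA for histidine (MT-TH), the stops were 0.330%, 1.21% and 1.22% in MRM3 KO, against 5.70%, 3.36% and 3.42% in parental cells, from 6, 8 and 20 stops in MRM3 KO and 175, 62 and 77 in parental cells (edgeR log2 -2.31, adjusted p = 3.4e-10; limma adjusted p = 0.11). At U8134 of MT-CO2 they were 1.31% ± 0.342 in MRM3 KO and 3.98% ± 0.672 in parental cells (SD, n = 3 each). The remaining lower positions of the 16S mt-rRNA, A1708, G2403, G2631 and G3036, stood at 45.3% to 53.3% of the parental mean, without overlap. At U1587 of the 12S mt-rRNA the parental libraries spread from 0.0516% to 0.736%, and parental replicate 3 lay among the MRM3 KO libraries.

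**Figure D4:**
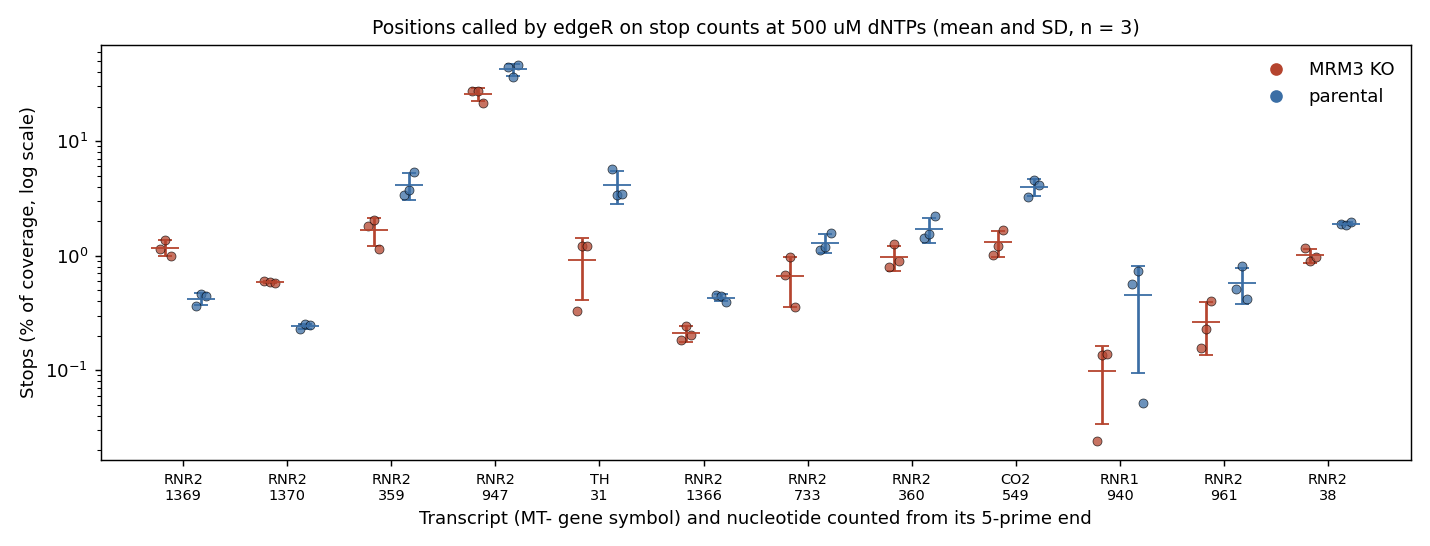
Stops as a percentage of coverage, on a log scale, at 12 of the 13 positions called by edgeR, named by transcript and by the nucleotide counted from its 5′ end; points are the 3 libraries of MRM3 KO (red) and of the parental line (blue), with mean and SD. The 2 positions on the left were higher in MRM3 KO and the other 10 lower, among them nucleotide 947 of MT-RNR2 (A2617), at 25.5% in MRM3 KO and 42.4% in parental cells.

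Nucleotide 9 of mt-tRNAs is a purine in 19 of the 22, and is methylated on the base by TRMT10C with its partner HSD17B10. Of these 19 positions 11 had the coverage to be tested, and none was called by limma or by edgeR. The log2 differences ran from -0.16 to 0.95 with a median of -0.02, and 5 of the 11 were above 0. In MT-TL1 the stops were 79.0%, 80.5% and 80.2% of the coverage in MRM3 KO, against 79.7%, 83.4% and 79.7% in parental cells. In MT-TV, which lies just before the 16S mt-rRNA, they were 45.7%, 46.1% and 44.1% in MRM3 KO, against 48.5%, 47.9% and 44.2% in parental cells. The groups did not overlap in 1 mt-tRNA of the 11, MT-TH, with MRM3 KO higher as at 3.04% of all positions tested, at 73.4% ± 0.980 in MRM3 KO and 64.5% ± 4.06 in parental cells (SD, n = 3 each; limma adjusted p = 0.26).

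**Figure D5:**
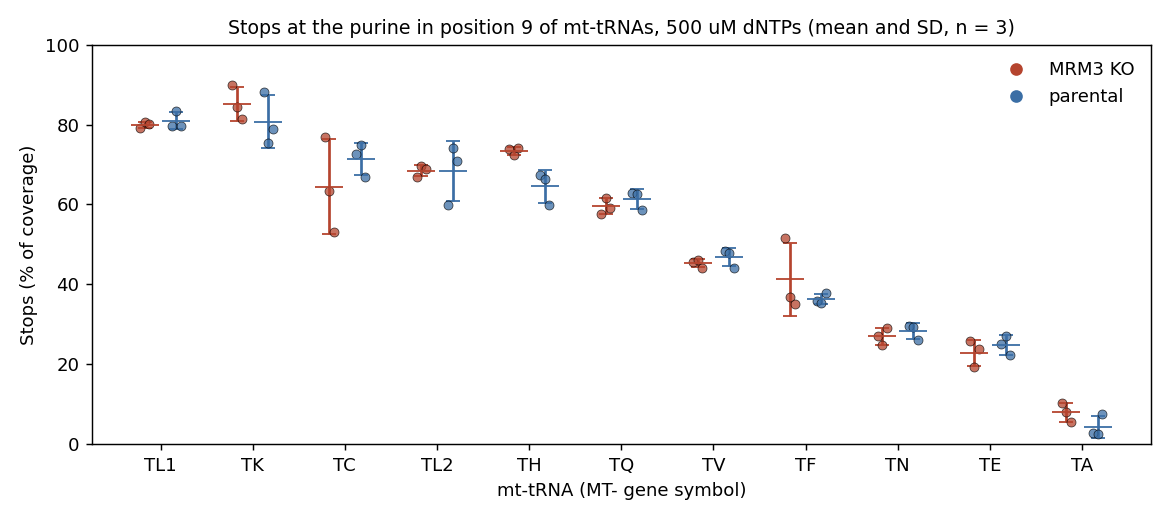
Stops as a percentage of coverage at the purine in position 9 of the 11 mt-tRNAs with enough coverage; points are the 3 libraries of MRM3 KO (red) and of the parental line (blue), with mean and SD. The levels run from over 80% in MT-TL1 to under 10% in MT-TA in parental cells, and the lines overlap in all but MT-TH.

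The stops at the modified residues of the 12S mt-rRNA were tested in the same fit, and none was called by either test. At m62A1584, a base-methylated adenosine near the 3′ end, they were 2.97%, 3.26% and 3.70% in MRM3 KO, against 5.56%, 4.99% and 3.95% in parental cells (limma adjusted p = 0.60). At m62A1583 beside it they were 4.11% ± 0.860 in MRM3 KO and 5.60% ± 1.25 in parental cells (SD, n = 3 each), and overlapped. At m5C1488 they were 0.384% ± 0.0267 in MRM3 KO and 0.517% ± 0.0209 in parental cells (SD, n = 3 each), without overlap (limma adjusted p = 0.78). At G2815 the stops were 0.195% ± 0.0215 in MRM3 KO and 0.135% ± 0.0370 in parental cells (SD, n = 3 each; limma adjusted p = 0.64), also without overlap, from 11 to 20 stops per MRM3 KO library. Over all positions tested, MRM3 KO was higher without overlap at 3.04% and lower without overlap at 6.02%.

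The length of the counted fragments was tested for the 37 transcripts and the shape of the coverage in 139 bins of 100 nucleotides. Limma called no transcript longer (0%) or shorter (0%) in MRM3 KO, with 1 at an unadjusted p under 0.05, and called 2 without parental replicate 3. In the 16S mt-rRNA the fragments averaged 158, 151 and 130 nucleotides in MRM3 KO and 133, 131 and 152 nucleotides in parental cells. The short libraries were MRM3 KO replicate 3 and parental replicates 1 and 2, so that length differed among plates within each line. No bin had a higher (0%) or lower (0%) share of its transcript's coverage in MRM3 KO, with 1 higher and 4 lower at an unadjusted p under 0.05 (limma).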

How the data were processed

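RNA of the mitochondria-enriched fraction of 4 lines was broken by alkaline hydrolysis, and libraries were made with 2 or 500 μM dNTPs. By the submitters' processing notes, reads were aligned with STAR 2.5.3a to GRCh38.p13. The deposited counts are the authors' raw counts of 5′ ends, 3′ ends and coverage at each transcript position. The deposited cleavage protection scores and stop ratios are fractions that the authors computed from those counts. All 36703 scores and 184548 stop ratios at 500 μM were recovered from the counts to within 1e-12. Coverage follows from the end counts within each transcript at all 15416 positions, so only fragments lying wholly within a transcript were counted, and precursors across a junction were not. All 15416 positions matched the base of the mitochondrial chromosome and the 37 transcripts of GENCODE 44. A further 10 deposited columns hold p-values of the authors' own comparisons and were not used. Reads carry no molecular identifiers, so intervals cover counting error only.

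The score used 6 flanking positions on each side, a flank median of at least 15 reads, and negative values set to 0. Positions scored in all 12 libraries at 500 μM, and above 0 in at least 3, were tested. The stop ratio, with 1 added to stops and coverage, was tested on the log2 scale where coverage was at least 50. Both, fragment length and coverage shape were fitted with limma 3.58.1 in R 4.3.3 (4 lines, moderated variance with trend), and reads per transcript with edgeR 4.0.16 (TMM, quasi-likelihood; at least 10 reads in at least 3 libraries). P-values are two-sided and Benjamini-Hochberg adjusted, with a threshold of 0.05. DESeq2 1.42.0 was an alternative. RPM are reads of a transcript per 1000000 counted reads of the library. For 3 against 3, the exact permutation p cannot go under 0.1. Tests were checked on simulated data. Python 3.11.15, pandas 2.3.3, numpy 2.4.6 and scipy were used.

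The members, lists and tests were chosen with earlier results of these data known. Named are the known modified residues of the mt-rRNAs, the 10 positions on either side of the 2′-O-methylated ones, nucleotide 9 of mt-tRNAs with a purine there, up to 5 calls per direction with no overlap of replicates, the 2 mt-rRNAs and the 10 largest transcript calls with no overlap; other transcripts are named to account for all 37. The other stop positions called by edgeR are named as well, chosen after their values were seen, except 1 higher position that is not reported here. The alternative with 5′ ends, the one without mt-tRNAs and the fit without a trend were added after seeing the data. The other lines, except where stated, are not analysed here.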

Additional observations from a re-analysis of the deposited data

How the results depend on the processing

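Without the filter on scores above 0 (a fit that limma reported as unreliable because most variances were 0), with the 6 libraries of the comparison alone and with thinned libraries, 1 position was called for cleavage protection, and 1 to 3 on leaving out a replicate. The difference at G2815 ranged from -0.084 to 0.023 on leaving out a replicate (0.015 without MRM3 KO replicate 1 and 0.023 without parental replicate 1) and was 0.00042 with edgeR on the ends. In 3′ ends relative to the flank, G2815 differed by 0.411 with a flank of 4 and by 9.56 with 5′ ends, and by -2.53 to 3.33 points on leaving out a replicate; U3039 differed by 163 points with 5′ ends. Stop ratios gave 13 calls with edgeR, 5 with 0.1 added, and 0 to 23 on leaving out a replicate. Reads gave 6 calls in the 2 μM libraries, where MT-TP turned to 0.15; MT-RNR1 turned to -0.15 with the 6 libraries alone and to -0.17 without mt-tRNAs. Fragment length gave 0 to 2 calls on leaving out a replicate. Replicate numbers did not pair the samples (correlations of deviations of 0.13, -0.17 and -0.0011 over transcripts); a replicate block gave 14 calls for reads (MT-ND4L was lost, adjusted p = 0.052, edgeR), 2 for cleavage protection and 0 for stop ratios. Causes were not tested. All but 1 of the positions with a tested score lie in the mt-rRNAs.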
